A study of Sus scrofa with 5 samples.

Results

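T cells of the piglet cecum that carried the activation receptors TNFRSF4, TNFRSF18 and ICOS are described here from single-cell RNA-seq of the cecal mucosa at birth (d0) and at d1, d7, d14 and d21. The cells were chosen by the counts they themselves held, in unique molecular identifiers (UMIs, 1 for each RNA molecule caught), so the values that chose them are a description and not a finding. A cell was taken if it had at least 200 detected genes, at least 2 UMIs of CD3E and CD3G together, and at least 2 UMIs of TNFRSF4, TNFRSF18 and ICOS together. It could hold at most 1 UMI of the cytotoxic and innate-like set XCL1, KLRK1, CRTAM and ZNF683, at most 1 of the cytokines IL17A, IL17F and IL22, at most 1 of the cycling genes MKI67 and TOP2A, and 0 of the epithelial gene EPCAM. This rule took 1975 of 72701 cells (2.72%, exact Clopper-Pearson 95% interval 2.60 to 2.84), among 16755 cells with at least 2 CD3E and CD3G UMIs. They are called selected T cells below. The piglets were untreated males of Large White sows that drank only maternal milk, and each age is 1 library, pooled from the ceca of 5 animals. Differences between animals therefore could not be separated from age, no test between ages was possible, and all intervals cover counting error only. Since the mucosa was scraped and then released with EDTA and trypsin, the shares describe the recovered cells and not the intact wall.

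TNFRSF4 (OX40), TNFRSF18 (GITR) and ICOS are co-stimulatory receptors. T cells that have seen antigen put them on their surface, and they bind TNFSF4, TNFSF18 and ICOSLG on antigen-presenting and stromal cells. Regulatory T cells, which restrain other lymphocytes and are numerous in the wall of the large intestine, carry the same receptors together with the transcription factor FOXP3, the interleukin 2 receptor chain IL2RA and the inhibitory receptor CTLA4. Other T cells of the gut make interleukin 10 without FOXP3, often with the inhibitory receptor LAG3. In the Sscrofa11.1 annotation TNFRSF18 (chr6:63516037-63519323) and TNFRSF4 (chr6:63523850-63526672) are neighbours with 4526 bases between them. ICOS (chr15:107350253-107370123) lies 62211 bases from CTLA4 (chr15:107283081-107288041), and FOXP3 lies at chrX:43303777-43328164, IL10 at chr9:67400727-67405941 and LAG3 at chr5:63929669-63935054.

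The selected T cells were almost absent at birth and most frequent at d14. There were 9 among 15218 kept cells at d0, 10 among 14142 at d1, 398 among 10272 at d7, 1160 among 16177 at d14 and 398 among 16892 at d21. Their share of kept cells was 0.0591% at d0 (0.0270 to 0.112) and 0.0707% at d1 (0.0339 to 0.130). It was 3.87% at d7 (3.51 to 4.27), 7.17% at d14 (6.78 to 7.58) and 2.36% at d21 (2.13 to 2.60). The d21 value was below that of d7 although CD3 cells went on increasing, from 29.1% of kept cells at d7 to 34.8% at d14 and 43.6% at d21. Among the CD3 cells the selected ones made up 2.12%, 2.90%, 13.3%, 20.6% and 5.40% in age order. On the log2 scale the share of CD3 cells differed by 0.63 from d7 to d14 and by -1.93 from d14 to d21. The library of d14 supplied 58.7% of all selected T cells.

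**Figure D1:**
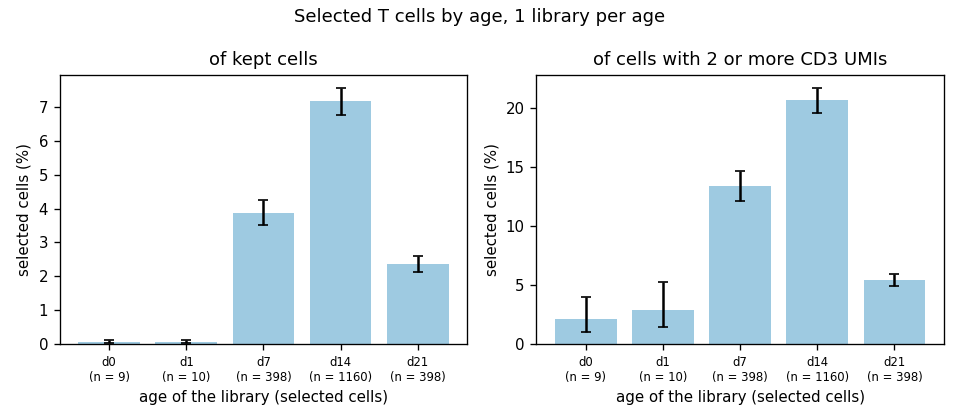
Share of selected T cells in each library, in percent of kept cells (left) and of cells with at least 2 CD3E and CD3G UMIs (right). Bars are 1 library each, error bars are exact 95% intervals of counting error, and n is the number of selected T cells. Both shares are highest at d14, at 7.17% and 20.6%.

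Detecting 2 UMIs of 3 genes depends on depth. The selected T cells had a median of 5255 UMIs at d7, 4237 at d14 and 3288.5 at d21, against 2617, 2675 and 2096.5 in the T cells that met the same limits but held 0 UMIs of the 3 receptor genes (504, 791 and 1166 cells, called other T cells below). Cells under 1000 UMIs (2376, 1832 and 3304 at d7, d14 and d21) were then left out and all others thinned to 1000 before the rule was applied. The selected share of the thinned cells was 1.13% at d7 (0.906 to 1.39), 2.96% at d14 (2.68 to 3.25) and 0.854% at d21 (0.706 to 1.02). The d14 share thus stood above both, and the intervals of d7 and d21 overlapped. The same thinning left 0 of 13859 cells at d0, for which the exact interval reaches 0.0266%, and 1 of 12118 at d1. Mitochondrially encoded genes took 5.69%, 4.98% and 6.74% of the counts of selected T cells at d7, d14 and d21. Between 37 and 79 barcodes were shared by each pair of libraries, at most 0.516% of the smaller library, and 1 selected barcode was shared, by d7 and d21.

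RNA of other cell types was present in the selected T cells and differed between the libraries. A level here is the summed count of a gene per 10000 counts of the same cells. The summed level of the B cell list was 0.425, 0.241 and 0.0513 at d7, d14 and d21, led by CD79B at d7 (0.158) and BANK1 at d14 (0.132) and d21 (0.0449), with CD79A at 0 in all 3. The summed level of the plasma cell list was 0.745, 5.03 and 2.89 at d7, d14 and d21, led by XBP1 at d7 and by JCHAIN afterwards (3.17 and 1.63), against 0.740, 22.4 and 7.55 in other T cells. The fibroblast list, led by COL3A1, was at 0.664, 7.95 and 2.47 and the myeloid list at 2.60, 4.92 and 0.654. The epithelial list was at 2.12, 0.375 and 1.38, far under the 71.9, 10.5 and 15.1 of all kept cells. The haemoglobin gene HBB alone gave 28.9 of 29.2 in the erythroid list at d7. A UMI of at least 1 gene of a 19-gene screen for other cell types was found in 68.3%, 65.6% and 66.3% of the selected T cells and in 63.7%, 62.6% and 60.9% of other T cells. Doublets and free RNA were not removed, and their part in the results was not tested beyond the values given.

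Of the 3 receptors, TNFRSF18 was the most often seen, in 80.7% of the selected T cells, followed by TNFRSF4 in 65.9% and ICOS in 54.1%. All 3 were detected in 583 cells (29.5%), 2 in 822 (41.6%) and 1 in 570 (28.9%). The summed UMIs of the 3 genes had a median of 4 and reached 98 in 1 cell. TNFRSF4 was seen in 69.1% of selected T cells at d7, 69.8% at d14 and 52.8% at d21, with 3.34, 3.79 and 1.62 UMIs per cell. TNFRSF18 was seen in 71.1%, 85.1% and 77.9% and ICOS in 56.5%, 54.7% and 50.8%. These are the genes of the rule and are given as a description.

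The cells just inside the threshold, with 2 UMIs of the 3 genes, numbered 532, and 992 cells with 1 UMI lay just outside. At d14 the 262 cells with 2 UMIs had a LAG3 level of 3.07, an IL10 level of 1.46 and a FOXP3 level of 0.0930, and the 383 cells with 1 UMI had 1.42, 0.841 and 0.0993. In the 637 cells of d14 with at least 5 UMIs the levels were 6.32, 2.98 and 0.794. FOXP3 was thus near the same level on both sides of the threshold and highest far inside it, with the same order at d7 (0.117 with 1 UMI, 0.0805 with 2, 0.774 with 5 or more) and d21 (0.0937, 0.0820 and 0.584). On the other limits, 192 cells had exactly 2 CD3 UMIs with 220 outside at 1, and 412 had 1 UMI of the XCL1 set with 215 outside at 2. For the IL17 set these numbers were 82 and 47, for the cycling genes 165 and 53, and 42 cells were left out by a single UMI of EPCAM.

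Which receptors a cell held went with different sets of other genes. Cells with all 3 receptors (108, 395 and 80 cells at d7, d14 and d21) had the highest levels of BATF, a transcription factor of activated and regulatory T cells, at 4.20, 5.35 and 5.21. In the same cells CTLA4 was at 0.465, 0.871 and 1.35, FOXP3 at 0.823, 0.978 and 0.675 and CD4 at 1.22, 1.60 and 1.78. A FOXP3 UMI was found in 31.5%, 29.6% and 23.8% of them.

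Cells with TNFRSF18 and neither TNFRSF4 nor ICOS (50, 178 and 98 cells) had little CD4, at 0.130, 0.187 and 0.136, and more CD8A, at 1.08, 1.80 and 1.76. FOXP3 was at 0.163, 0.0374 and 0.0271 in them. Their level of GZMB, the granule protease granzyme B, was 2.31, 13.7 and 25.8, against 0.847, 4.10 and 1.40 in the cells with all 3 receptors. KLRB1, which encodes the lectin receptor CD161, was at 2.90, 2.37 and 0.569 in the TNFRSF18 cells and at 0.573, 0.120 and 0.0810 in the cells with all 3. LAG3 was higher in the TNFRSF18 cells at d7 (3.65 against 2.10), while at d14 (4.56 against 6.84) and d21 (1.68 against 5.80) it was lower.

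Cells with TNFRSF4 and neither of the others (53 at d7 and 55 at d14, with too few at d21) had another pattern. CCR7, the homing receptor of naive and recirculating T cells, was at 3.65 at d7 and 1.32 at d14 in them, above the 1.10 and 0.0933 of the cells with all 3 receptors. LEF1, a transcription factor of naive T cells, was at 2.89 and 1.49, against 0.453 and 0.200. LAG3 was at 0.152 and 0.937, IL10 had no UMI at d7 and a level of 1.11 at d14, and CD4 was at 1.22 and 1.58. Levels for a kind of cell are given for libraries with at least 50 such cells, and the median depth of the kinds ranged from 4306 to 6707.5 UMIs at d7 and from 3285 to 4619 at d14.

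**Figure D2:**
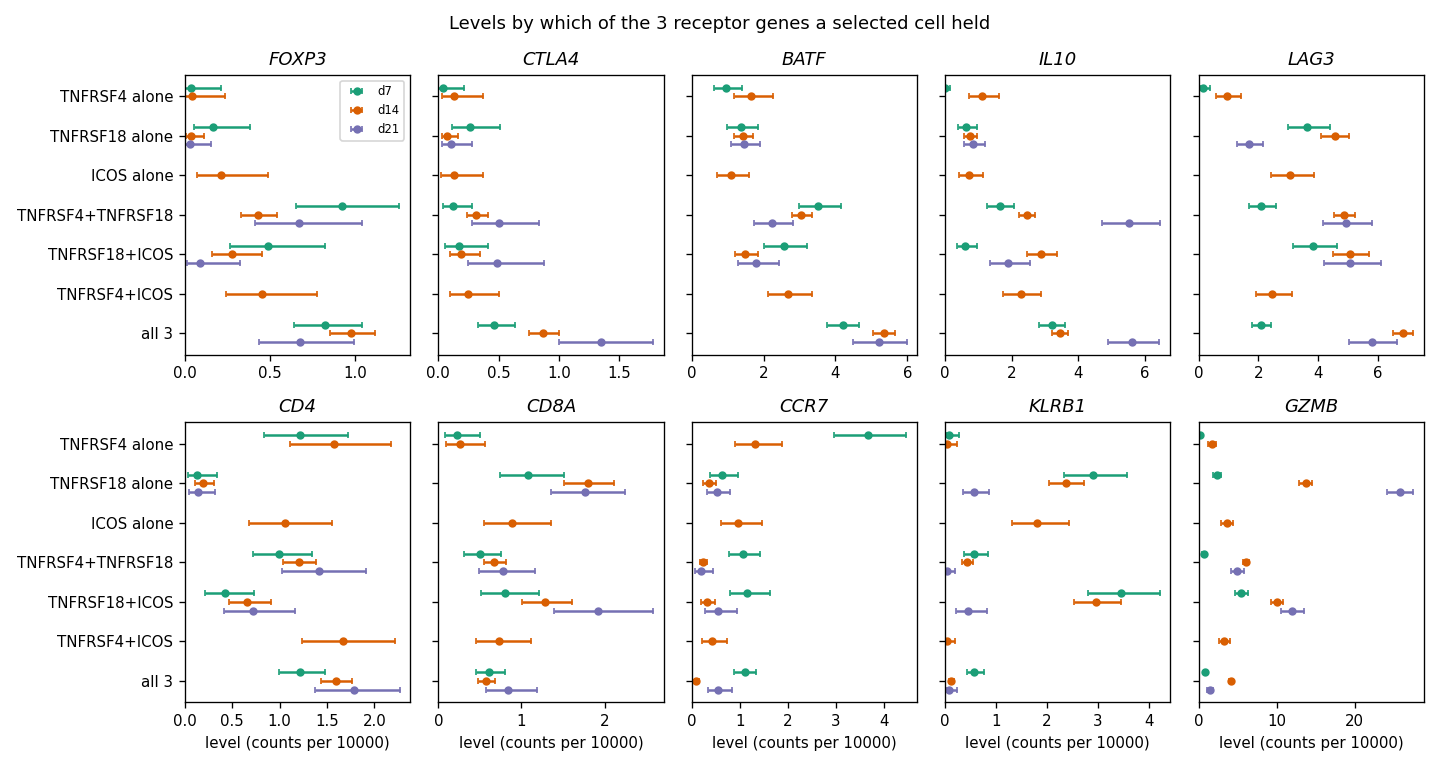
Levels (counts per 10000) of 10 genes in selected T cells split by which of TNFRSF4, TNFRSF18 and ICOS had a UMI, with d7, d14 and d21 in different colours and exact Poisson 95% intervals. Only groups of at least 50 cells are drawn, so 3 of the 7 groups lack d21. FOXP3, CTLA4 and BATF are highest or among the highest in cells with all 3 receptors, CD8A and GZMB in cells with TNFRSF18 and no TNFRSF4, and CCR7 in cells with TNFRSF4 alone.

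Beyond the genes of the rule, the selected T cells differed from other T cells of the same libraries in a short list of genes. Of 2803 genes with a mean level of at least 0.5, 7 (0.25%) were at least 2-fold higher in each of d7, d14 and d21 and 5 (0.178%) were at least 2-fold lower in each. The median log2 ratio over all 2803 genes was 0.065. Ratios were taken after adding 0.1 to both levels, which understates the change of low genes. No test was made, since the rule set these cells apart.

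LAG3, an inhibitory receptor for MHC class II, had the highest mean log2 ratio over the 3 libraries (2.59). Its level was 2.06, 5.25 and 3.70 at d7, d14 and d21 in selected T cells against 0.199, 0.842 and 0.622 in other T cells, or 7.23-fold, 5.68-fold and 5.27-fold. IL10, the anti-inflammatory cytokine, had a mean log2 ratio of 2.46 and was above LAG3 in fold at d7, with 1.53, 2.51 and 3.32 against 0.0901, 0.527 and 0.639, or 8.58-fold, 4.16-fold and 4.63-fold. Both genes were named with the label of these cells from earlier results of the same data, so they are not independent support for it. The next were PDCD1, the inhibitory receptor PD-1 (0.902, 1.27 and 0.783 against 0.0965, 0.297 and 0.211), and BATF (2.69, 3.40 and 2.74 against 0.540, 0.902 and 0.941). IL2RA was at 2.11, 1.02 and 0.853 against 0.656, 0.212 and 0.245. The exonuclease ISG20 and TNFRSF1B, a receptor for tumour necrosis factor found on regulatory T cells, completed the 7 genes with mean log2 ratios of 1.34 and 1.25. IL10, PDCD1 and IL2RA passed the level filter only through the selected T cells. With a pseudocount of 1 in place of 0.1, LAG3 and IL10 kept their calls and the other 5 higher genes and the 5 lower ones lost theirs. PDCD1 also lost its call when the d14 library was left out, with ratios of 5.10-fold at d7 and 2.84-fold at d21.

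The 5 lower genes were led by GNLY, the granule protein granulysin, which was at 0.567, 3.27 and 6.05 in selected T cells and at 6.82, 11.2 and 12.3 in other T cells. CTSW, a cathepsin of cytotoxic lymphocytes, was at 2.46, 2.06 and 2.05 against 6.05, 5.61 and 5.02. The transcription factor gene SOX4 (0.870, 0.519 and 0.558 against 2.41, 1.23 and 1.25), the lipolysis inhibitor G0S2 and the unnamed gene LOC100519314 made up the rest. G0S2 and LOC100519314 passed the filter only through the other T cells, where they are high. Both lost their calls in cells of 1500 to 6000 UMIs, and LOC100519314 also in cells under 20% mitochondrial counts. G0S2 and SOX4 lost theirs without the cells that held a screen gene, and G0S2 also without the d7 library and by per-cell means. A single cell held 52.9% of the GNLY counts of selected T cells at d7.

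**Figure D3:**
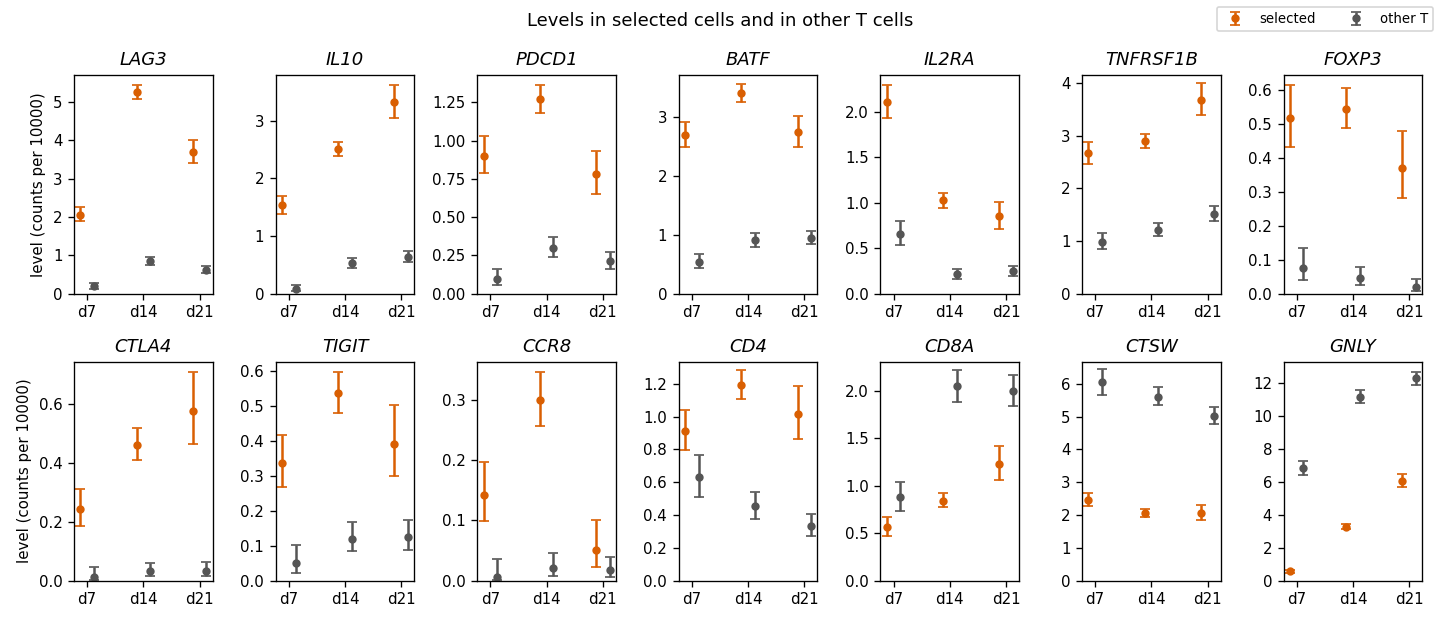
Levels (counts per 10000) of 14 genes at d7, d14 and d21 in selected T cells (orange) and in other T cells of the same library (grey), with exact Poisson 95% intervals. LAG3, IL10, PDCD1, BATF, IL2RA and TNFRSF1B are at least 2-fold higher in selected T cells at each age, and CTSW and GNLY at least 2-fold lower. FOXP3, CTLA4 and TIGIT, which fell under the level filter, are also at least 2-fold higher at each age.

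LAG3, IL10 and IL2RA were also high in other T cells that the rule left out. In the CD3 cells with at least 2 UMIs of IL17A, IL17F and IL22 (91, 359 and 190 cells), LAG3 was at 5.21, 5.91 and 1.27 and IL10 at 3.28, 3.71 and 2.69. IL2RA was at 5.55, 3.75 and 1.58 in them, above the selected T cells at all 3 ages. In the CD3 cells with at least 2 UMIs of the XCL1 set LAG3 and IL10 were at 0.728, 0.927 and 0.343 and at 0.151, 0.265 and 0.227. The order of selected T cells and IL17 set cells for LAG3 and IL10 changed between d14 and d21, where the selected T cells were higher.

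The regulatory T cell list had 14 genes, all in the matrices. Of the 7 that were measured by the level filter, IL2RA, IL10 and TNFRSF1B were called higher, beside 0.25% of all genes, and 0 lower. IL2RA and IL10 passed the filter only through the selected T cells, where they are high, so the count says nothing for the list. FOXP3 and CTLA4 fell under the filter on the mean level. FOXP3 was at 0.518 (0.432 to 0.616), 0.546 (0.488 to 0.608) and 0.372 (0.283 to 0.481) in selected T cells and at 0.0772, 0.0460 and 0.0204 in other T cells, and the intervals did not overlap at any of the 3 ages. CTLA4 was at 0.243, 0.462 and 0.577 against 0.0129, 0.0318 and 0.0340. The chemokine receptor CCR8 was at 0.142, 0.300 and 0.0513 against 0.00643, 0.0212 and 0.0170. Also under the filter, the transcription factor gene IKZF4 and the co-stimulatory receptor gene TNFRSF9 were higher at all 3 ages. EBI3 was lower at all 3 (0.0243, 0.0887 and 0.0257 against 0.0579, 0.0991 and 0.0374). LRRC32 was at 0.0243, 0.0318 and 0.0577 against 0, 0.0743 and 0.122. Among the measured genes that were not called, the chemokine receptor gene CCR4 was at 0.907, 0.861 and 0.532 against 0.225, 0.474 and 0.292, and ENTPD1, the ectoenzyme CD39, at 0.615, 0.581 and 1.12 against 0.244, 0.361 and 0.479. IKZF2, the transcription factor Helios, was at 2.66, 2.72 and 2.65 against 3.00, 1.61 and 3.60, and TGFB1 at 1.84, 1.65 and 1.32 against 1.92, 1.45 and 1.51.

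In the list of genes of IL10-producing type 1 regulatory cells, 3 of 8 were measured, and IL10 and LAG3 were called higher, beside 0.25% of all genes. Both were already named with the label and IL10 passed the filter only through the selected T cells, so nothing is read from this count. The third, the repressor gene PRDM1, was at 0.522, 0.790 and 0.949 against 0.0836, 0.421 and 0.639. MAF, a factor that drives IL10 in several T cell types, was low in both groups (0.117, 0.0770 and 0.173 against 0.0450, 0.0318 and 0.0781). Also under the filter, EOMES (0.0324, 0.0502 and 0.109 against 0.0708, 0.272 and 0.214) and CD226 (0.219, 0.218 and 0.423 against 0.386, 0.456 and 0.455) were lower at all 3 ages. HAVCR2 (0.186, 0.260 and 0.334 against 0.0643, 0.205 and 0.163) and IL21 were higher at all 3. In the list of inhibitory receptors LAG3 and PDCD1 of 3 measured genes were called higher, beside 0.25% of all genes, and PDCD1 passed the filter only through the selected T cells. CD96, the other measured gene of that list, was lower at all 3 ages, at 0.247, 0.321 and 0.738 against 0.881, 0.817 and 1.24. TIGIT, an inhibitory receptor below the filter, was at 0.336, 0.536 and 0.391 against 0.0515, 0.120 and 0.126. No gene was called among the 4 measured co-stimulatory receptors or the 9 measured genes of the T cell receptor complex and its signalling, with median log2 ratios of 0.28 and 0.0064.

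Genes of helper subsets were mostly low. The type 1 and type 2 helper lists had 3 and 2 measured genes and 0 called. In the type 17 helper list 2 of 8 genes were measured and 0 called. The rule had itself capped the IL17 cytokines, so nothing is read from this count. Below the filter, the cytokine IL26 was at 0.235, 0.452 and 0.456 against 0.0193, 0.0849 and 0.0611, and the chemokine CCL20 at 0.482, 0.856 and 0.391 against 0.0257, 0.0991 and 0.282. The effector cytokine IFNG was at 0.0121, 0.0519 and 0.115, and IL2 had levels of at most 0.0192 in these 3 libraries. In the follicular helper list, 1 of 3 measured genes was called higher, beside 0.25% of all genes. It was PDCD1, which passed the filter only through the selected T cells. CXCR5, the follicle homing receptor, was at 0.0769, 0.0854 and 0.0513. The cytotoxic list had 7 measured genes, of which 2, GNLY and CTSW, were called lower, beside 0.178% of all genes, with a median log2 ratio of -0.91.

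FOXP3 was detected in a minority of the selected T cells. A FOXP3 UMI was present in 66 of 398 cells at d7 (16.6%, 13.1 to 20.6), 184 of 1160 at d14 (15.9%, 13.8 to 18.1) and 41 of 398 at d21 (10.3%, 7.49 to 13.7). The share in other T cells was 1.98%, 1.39% and 0.429%. Epithelial cells (at least 2 EPCAM UMIs and 0 of CD3E and CD3G) should lack FOXP3 and so show the level of free RNA. The share there was 0.285% at d7, 0 of 195 cells at d14 (exact upper limit 1.87%) and 0 of 631 at d21 (0.583%). Median depths in epithelial cells were 17698, 8580 and 4792 UMIs. After thinning to 1000 UMIs, which left out cells under 1000, the share in selected T cells was 4.82%, 5.13% and 4.36%. Their intervals overlapped. At birth, 0 FOXP3 UMIs were seen in the 9 selected T cells and at d1 there were 0 in 10. Over d7 to d21, FOXP3, the defining gene of regulatory T cells, was seen in 14.9% of 1956 cells. In the rest it was not detectable at this depth. A regulatory identity thus rests on this marker for that part of the cells, with doublets and free RNA not removed. The rest are named only by the receptors of the rule.

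The selected T cells that held a FOXP3 UMI were compared with those that did not, within the same libraries. Of 2737 genes with a mean level of at least 0.5, 3 (0.11%) were at least 2-fold higher in the FOXP3 cells at all 3 ages and 15 (0.548%) at least 2-fold lower. The 3 higher genes were CTLA4 (0.570, 1.23 and 1.89 against 0.165, 0.291 and 0.383), BATF (5.00, 7.08 and 5.61 against 2.14, 2.58 and 2.31) and the RNA helicase HELZ (3.25, 3.00 and 2.33 against 0.901, 1.12 and 0.869). CTLA4 passed the filter only through the FOXP3 cells. CCR8, under the filter, was at 0.612, 0.735 and 0.199 against 0.0300, 0.203 and 0.0295. Of the 13 genes of the regulatory list other than FOXP3, 8 had a higher level in the FOXP3 cells at all 3 ages. A lower level at all 3 was found for 2, and 3 were mixed. The share of all genes that were higher at all 3 ages is not given, so nothing is read from this tally. CTLA4 alone passed the call, beside 0.11% of all genes. Among the 8, TNFRSF9, the co-stimulatory receptor 4-1BB, was at 1.20, 0.873 and 0.844 against 0.215, 0.471 and 0.449, and CCR4 at 1.39, 1.35 and 0.646 against 0.791, 0.751 and 0.516. IKZF4, the transcription factor Eos, was at 0.506, 0.726 and 0.248 against 0.150, 0.127 and 0.103, and CCR8, IL10, LRRC32 and TNFRSF1B were the others. LRRC32 had only 3, 6 and 2 counts in the FOXP3 cells. ENTPD1 was lower in the FOXP3 cells at all 3 ages (0.422, 0.221 and 0.149 against 0.661, 0.661 and 1.26). IL2RA was at 1.98, 1.64 and 1.54 against 2.14, 0.889 and 0.751, IKZF2 at 3.74, 4.52 and 2.48 against 2.41, 2.32 and 2.67, and TGFB1 at 1.71, 1.61 and 1.19 against 1.87, 1.66 and 1.33.

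IL10 was highest in the FOXP3 cells, at 3.55, 4.23 and 11.4 against 1.05, 2.12 and 2.11. It was not called, as d14 stayed under 2-fold with 0.1 added. At d21 the value rested on 23 cells with IL10, of which 1 held 18.7% of the counts, and without that cell the level was 9.42. Across the 3 ages IL10 was found in 46.4% of the FOXP3 cells and in 20.5% of the others, and 342 cells with IL10 had no FOXP3 UMI while 135 had one. LAG3 was found in 70.8% and 45.8%, IL2RA in 47.8% and 25.1%, and CTLA4 in 37.8% and 9.79%. IL10 and LAG3 also went together, with LAG3 in 68.6% of the IL10 cells and 43.3% of the rest. The cells with FOXP3 were deeper at d7 and d14 and shallower at d21, with medians of 5914, 4775.5 and 3059 UMIs against 5212, 4148 and 3297, and the part of depth in these shares was not tested.

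The genes that were lower in the FOXP3 cells included IL7R, the interleukin 7 receptor chain that regulatory T cells carry little of (0.359, 0.230 and 0.149 against 2.60, 1.67 and 1.46). TCF7, a transcription factor of naive and memory T cells, was at 0.464, 0.340 and 0.497 against 2.37, 1.14 and 1.16. GNLY was at 0.148, 0.285 and 0.348 against 0.666, 3.94 and 6.90, and the surface glycoprotein gene CD52 at 7.28, 4.87 and 6.11 against 21.8, 19.0 and 20.4. Of the 7 genes of the MHC class II list, 6 were measured and 4 were among the 15, beside 0.548% of all genes. They were SLA-DRA (0.612, 4.49 and 0.894 against 2.10, 11.4 and 3.82), SLA-DRB1, SLA-DQA1 and SLA-DQB1. The others were CST7, FCER1G, JAML and 4 genes known only by codes (LOC110257905, LOC102160313, LOC100627879 and C9H1orf186). IL7R, TCF7, GNLY, JAML, C9H1orf186 and LOC100627879 passed the filter only through the cells without FOXP3, where they are high, so nothing is read from the count. GZMB was at 1.18 against 1.39 at d7, 5.99 against 6.41 at d14 and 0.695 against 11.2 at d21.

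**Figure D4:**
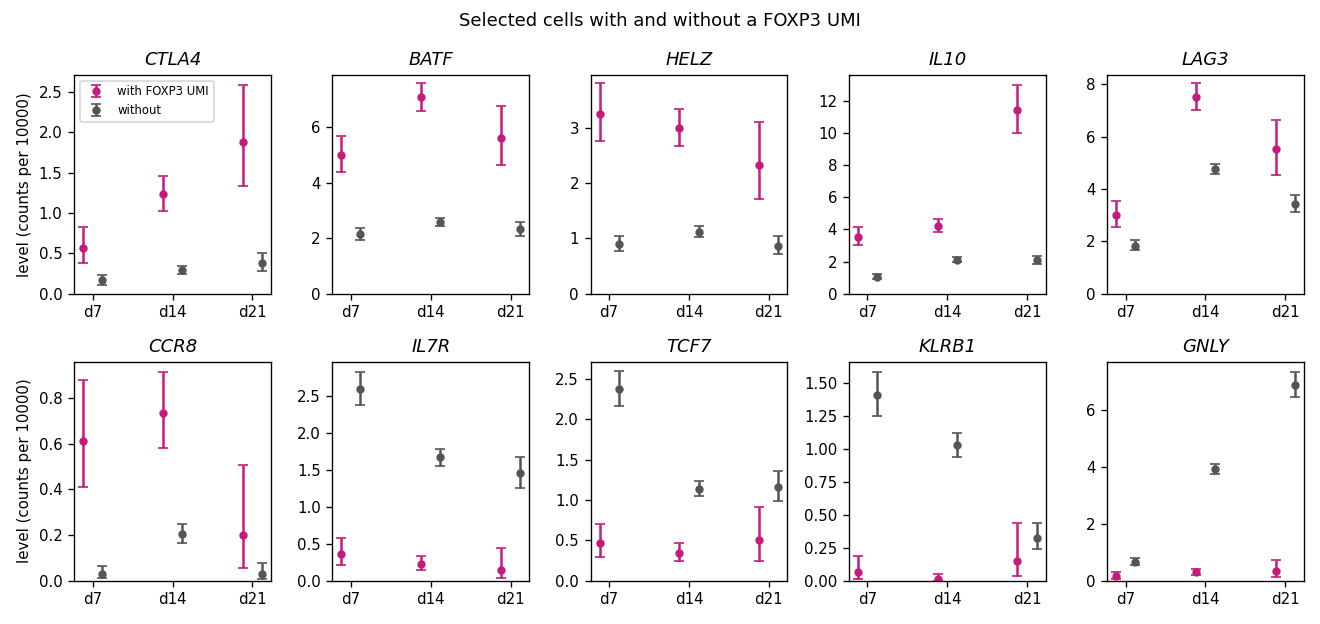
Levels (counts per 10000) of 10 genes in selected T cells with (pink) and without (grey) a FOXP3 UMI at d7, d14 and d21, with exact Poisson 95% intervals. CTLA4, BATF and HELZ are at least 2-fold higher with FOXP3 at all 3 ages, and IL7R, TCF7 and GNLY at least 2-fold lower.

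CD4, the co-receptor of helper and regulatory T cells, was detected in 35.7%, 38.3% and 26.6% of the selected T cells at d7, d14 and d21, against 14.3%, 11.5% and 6.95% of other T cells. CD8A was detected in 23.6%, 26.5% and 26.9%, against 17.5%, 36.7% and 30.0%. Thinned to 1000 UMIs, CD4 was seen in 8.88%, 12.1% and, at d21, 43 of 390 selected T cells against 5.90%, 4.85% and 3.21% of other T cells, and CD8A in 6.09%, 8.44% and 12.8% against 8.62%, 20.9% and 16.8%, so the order for CD8A at d7 turned. In unthinned epithelial cells CD4 was seen in at most 1.03% and CD8A in at most 5.23% in these libraries. By level, CD4 was at 0.915, 1.19 and 1.01 against 0.630, 0.453 and 0.333 in other T cells, and CD8A at 0.563, 0.842 and 1.23 against 0.875, 2.04 and 1.99. Of 1956 cells, 554 had CD4 without CD8A, 370 had CD8A without CD4, 138 had both and 894 had neither. CD8A was found in 19.9% of the cells with CD4 and in 29.3% of those without. CD8B, the second chain of the conventional CD8 co-receptor, was rare, in 4.96% of the 1956 cells. It was found in 7 of the cells with CD4 (1.01%), against 7.12% of those without. Pig T cells with both CD4 and CD8A are known as activated and memory helper cells. Whether the 138 cells here are of that kind was not tested, and doublets were not removed. At this depth the cells with neither may carry either gene undetected.

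The change with age was described as d21 over d7, with d14 beside it. Of 2724 genes with a mean level of at least 0.5 in selected T cells, 64 (2.35%) were at least 2-fold higher at d21 and 27 (0.991%) at least 2-fold lower, and the median log2 ratio was -0.032. A bulk-like sum over cells cannot tell fewer cells of a kind from less RNA per cell, so a level that differs between ages may be either.

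Several genes of cytotoxic granules had higher levels at d21. In the cytotoxic list 6 of 8 measured genes were called higher, against 2.35% of all genes and 1 lower. The count is a description, since 3 of these 7 (GZMA, GZMH and KLRB1) passed the filter only through the age at which they are high, while GZMB, GNLY, NKG7 and CCL5 were above 0.5 at both ages. GZMB was at 1.35, 6.33 and 9.82 at d7, d14 and d21, against 1.74, 10.1 and 7.89 in other T cells. GNLY was at 0.567, 3.27 and 6.05, and its d7 level was 0.267 without the counts of the 1 cell that led it. A GNLY UMI was seen in 11.6%, 17.3% and 22.6% of the selected T cells, and 10 cells held 74.3%, 57.5% and 74.8% of the GNLY counts. The chemokine CCL5 was at 21.1, 44.6 and 91.4 in selected T cells, at 46.3, 94.5 and 130.0 in other T cells and at 0.806, 0.784 and 5.11 in epithelial cells. At d21 a CCL5 UMI was present in 98.7% of the selected T cells and in 97.6% of the epithelial cells, and after thinning to 1000 UMIs in 84.1% (80.1 to 87.6) and 52.4% (48.3 to 56.5). NKG7 was at 1.66, 2.38 and 4.18, GZMA at 0.101, 0.340 and 1.04 and GZMH at 0.158, 0.616 and 1.62. GZMA lost its call with a pseudocount of 1 and without the cells that held a screen gene (log2 ratios 0.89 and 2.72). KLRB1 was the list's gene that was lower, at 1.15, 0.841 and 0.302. NKG7 and KLRB1 lost their calls with a pseudocount of 1. Of the 1531 GZMB counts of d21, 952 lay in the 98 cells with TNFRSF18 alone.

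IL10 was called higher at d21 (1.53, 2.51 and 3.32, log2 ratio 1.07), and LAG3 was at 2.06, 5.25 and 3.70 (log2 ratio 0.81). In other T cells both log2 ratios from d7 to d21 were larger, with IL10 at 0.0901, 0.527 and 0.639 and LAG3 at 0.199, 0.842 and 0.622 (log2 ratio 1.27 for LAG3). The call of IL10 was lost with a pseudocount of 1. Without the IL10 counts of the 1 cell with the most in each library, the IL10 levels were 1.38, 2.45 and 3.04. CD8A was also called (0.563, 0.842 and 1.23), with a log2 ratio of 1.01 that lay at the threshold. It lost the call with a pseudocount of 1, in cells of 1500 to 6000 UMIs, in cells under 20% mitochondrial counts, without the cells that held a screen gene and by per-cell means (log2 ratios of 0.49 to 0.98). Of 6 measured interferon-induced genes ISG15, IFIT1 and RSAD2 were called higher at d21, beside 2.35% of all genes. IFIT1 and RSAD2 passed the filter only through d21, where they are high, so nothing is read from the count, and both lost the call in cells of 1500 to 6000 UMIs and with a pseudocount of 1, RSAD2 also without the cells that held a screen gene. ISG15 was at 6.98, 12.4 and 15.5 in selected T cells and at 8.90, 8.87 and 12.1 in other T cells.

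5 of the 10 largest rises were stress genes, picked out after their values were seen. HSPH1, a heat shock chaperone, was at 4.50, 7.12 and 18.7 in selected T cells, at 4.46, 7.61 and 19.0 in other T cells and at 2.65, 3.56 and 13.4 in epithelial cells. HSPD1, the mitochondrial chaperonin, was at 4.54, 5.88 and 12.8, at 2.39, 4.56 and 10.2 and at 4.59, 6.82 and 13.4 in the same order. The co-chaperone BAG3, the small heat shock protein HSPB1 and ZFAND2A, a gene induced by protein stress, had log2 ratios of 1.86, 1.57 and 2.63, and in epithelial cells they went from 1.90, 2.60 and 0.927 at d7 to 9.36, 8.60 and 7.18 at d21. Their part in the other changes with age was not tested.

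Other genes had lower levels at d21 than at d7. In the list of naive or recirculating T cells 2 of 6 measured genes were called lower, against 0.991% of all genes, CCR7 (1.47, 0.285 and 0.423) and LEF1 (1.02, 0.301 and 0.192), both of which passed the filter only through d7, where they are high, so nothing is read from the count. CCR7, LEF1 and IL2RA lost their calls with a pseudocount of 1. IL2RA was at 2.11, 1.02 and 0.853 and was called lower, while in other T cells it was at 0.656, 0.212 and 0.245. LTB, the lymphotoxin chain that shapes lymphoid tissue, was at 6.47, 4.50 and 2.23, and the calcium-binding S100A4 at 11.7, 8.05 and 4.68.

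HBB had the lowest ratio and rested on few cells. It was at 28.9, 0 and 2.43, and 97.6% of its d7 counts lay in 10 cells, with 96.8% of those of d21 in 1. LOC100152327, whose ratio was the largest rise (log2 4.00), was at 0.567, 30.0 and 10.6 in selected T cells and at 2.94, 229 and 5.72 in other T cells, and 1 cell held 37.3% of its counts at d14 and 48.8% at d21. It was seen in 12.8%, 87.2% and 74.6% of the selected T cells, and without the counts of the leading cell its levels were 0.457, 18.8 and 5.41. JCHAIN, of the plasma cell list, was also highest at d14 of these ages. It too was higher there in other T cells, at 19.2 against 3.17. In selected T cells 34.6% of its d14 counts lay in 1 cell. Whether the counts of LOC100152327 came from other cell types was not tested.

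**Figure D5:**
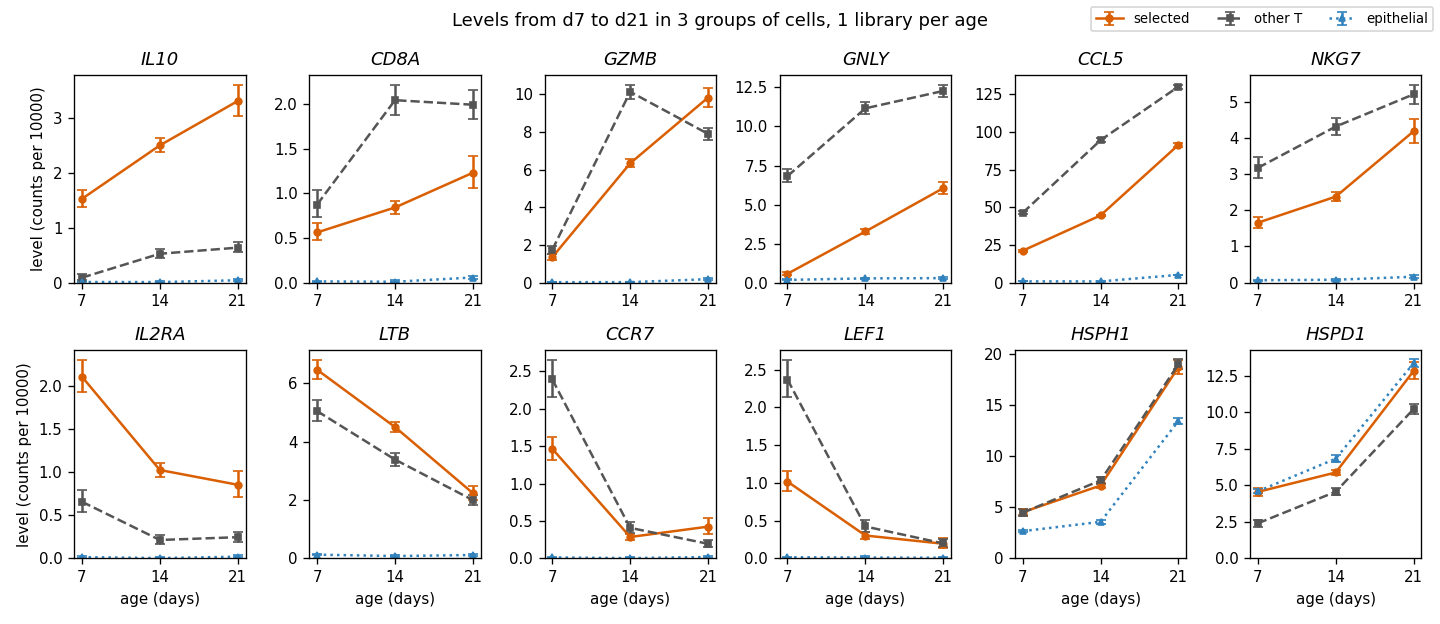
Levels (counts per 10000) of 12 genes by age in selected T cells (orange), other T cells (grey) and epithelial cells (blue), with exact Poisson 95% intervals and 1 library per age. GZMB, GNLY, CCL5 and NKG7 are higher at d21 than at d7 in selected T cells, IL2RA, LTB, CCR7 and LEF1 lower, and HSPH1 and HSPD1 are higher at d21 in all 3 groups of cells.

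The ligands of the 3 receptors were looked up in CD3-negative cells with at least 5 UMIs of the marker list of 1 cell type and over 2 times those of any other. ICOSLG was at 3.99, 1.90 and 2.19 at d7, d14 and d21 in fibroblasts, at 1.82, 1.07 and 1.21 in myeloid cells and at 1.62, 0.882 and 1.06 in B cells, against 0.0628, 0.106 and 0.205 in the epithelium. TNFSF4, the ligand of TNFRSF4, was low everywhere, at 0.0891, 0.0692 and 0.0772 over all kept cells and at 0.0931, 0.0954 and 0.122 in the selected T cells themselves. TNFSF18, the ligand of TNFRSF18, was at most at 0.0924, in fibroblasts of d7. CD86, a ligand of CTLA4 and CD28, was at 1.10, 1.46 and 1.38 in myeloid cells.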

How the data were processed

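The authors deposited, for each of 5 libraries, a matrix of UMI counts without normalization, made per their processing notes with Cell Ranger 3.1.0 and STAR on the porcine build susScr11 (Sscrofa11.1). The paper names version 2 of the 10x kit and the labels version 3, and the paper's forced number of cells is below the barcodes in the matrices. Cells with at least 200 genes were kept (15218, 14142, 10272, 16177 and 16892 at d0 to d21, with 83394038, 80196009, 47921183, 91863866 and 69522315 counts). Doublets were not removed and no clusters were made.

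Counts were summed over selected T cells and over other T cells (same limits, 0 UMIs of the 3 receptor genes) in the 3 libraries with at least 50 selected cells, and scaled to 10000. Log2 ratios have 0.1 added, a gene needed a mean level of 0.5, and a call needed 2-fold (in each library for comparisons within libraries). Genes of the rule were left out. With 1 library per age, nothing was tested. Shares have exact Clopper-Pearson and levels exact Poisson 95% intervals (SciPy 1.17.1), which cover counting error only. All genes of the lists in the matrices could be named, with the 10 largest ratios per direction (for age, mean level at least 1), and splits by receptor, HELZ and other genes of the FOXP3 split, and single cells that led a gene were chosen after values were seen. The members, lists and splits were chosen with earlier results of these data known. On simulated counts of 2683 genes (selected against other T cells), 158 of 158 changed genes and 0 of 2525 unchanged ones were called. For d21 over d7 these were 164 of 164 and 0 of 2477. The changes put in were well past 2-fold, and the simulated counts had Poisson error only. Spread between cells was left out, so these numbers do not measure the errors of calls on the real cells. Coordinates are those of RefSeq for Sscrofa11.1, matched by symbol. 8 list genes were not analysed here, and 1 gene's values are not reported here.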

Additional observations from a re-analysis of the deposited data

How the results depend on the processing

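The order of the shares, highest at d14 and higher at d7 than at d21, was the same under all 4 alternatives, but the values moved. Of cells with at least 1000 UMIs, thinned to 1000, the selected share was 0, 0.00825, 1.13, 2.96 and 0.854% in age order. Under 20% mitochondrial counts it was 0.151% at d0, 4.84% at d7, 7.97% at d14 and 2.76% at d21, and with at least 500 genes 4.87% at d7, 7.85% at d14 and 2.75% at d21. Without cells that held a screen gene of another cell type it was 0.217, 0.272, 4.85, 13.0 and 2.62% in age order. That filter also took cells of other types out of the base, so these shares have another base than the main ones. The base was 734 cells at d1, with 2 selected, and 3076 at d14, with 399 selected. FOXP3 cells were 4.82% at d7, 5.13% at d14 and 4.36% at d21 after thinning, and 12.3% at d14 without screen-gene cells.

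Genes higher in selected than in other T cells numbered 7, with 2 at a pseudocount of 1 and 13 without the level filter, and 7 to 13 when 1 library was left out (13 without d21, where 1 comparison fewer had to pass). Genes lower numbered 5, with 9 at a pseudocount of 0.01, 0 at 1, 3 for cells of 1500 to 6000 UMIs, 12 without screen-gene cells and 10 by per-cell means, and 6 to 14 with 1 library left out. At d21 over d7 the 64 higher genes became 20 at a pseudocount of 1 and 186 without the filter, and the 27 lower ones 4, 75 and, for cells of 1500 to 6000 UMIs, 43. CTSS, lower with age, had a log2 ratio of 0.18 without screen-gene cells, and the cause was not tested. For the 12 genes called between selected and other T cells, 102 of 120 alternative values kept the call and 0 turned sign. For the 38 named genes called with age, 263 of 304 kept it, 41 lost it and 1 turned sign, and 17 of the 38 kept the call at a pseudocount of 1. Without screen-gene cells, HBB, JCHAIN and COL3A1 (screen genes) and CD8A, GPR183, GZMA, RSAD2, FABP1 and CTSS lost their calls with age. Between ages no paired analysis was possible because each age is 1 library. Groups of cells were compared within each library, and no test was made.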
